A study of Mus musculus with 9 samples.

Results

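The enzymes that make the small lipid and amine mediators of mast cells and basophils were followed across cultures of mouse bone marrow cells. The set holds 10 genes, Hdc, Tph1, Ddc, Slc18a2, Hpgds, Ptgs1, Ptgs2, Ltc4s, Alox5 and Alox5ap, which were taken by gene symbol from gene tables with 55274 identifiers. Each symbol matched a single identifier. RNA of 9 cultures was sequenced, 3 with NRASG12D, 3 with NUP98-NSD1 and 3 with NUP98-NSD1+NRASG12D (here called combined cells). The vector MSCV-IRES-BFP carried NRASG12D, an NRAS with an amino acid change that keeps it switched on. MSCV-IRES-GFP carried NUP98-NSD1, a fusion of a nucleoporin with an enzyme that methylates histones. Combined cells carried both vectors. All 3 groups came from female C57BL/6J mice of 6 to 8 weeks that were given 150 mg/kg of 5-fluorouracil 4 days before their bone marrow was taken. All were stimulated for 48 h and grown with 10 ng/mL of hIL-6, 6 ng/mL of mIL-3 and 20 ng/mL of mSCF, transduced, sorted by fluorochrome and expanded. There was no group with an empty vector and none of untransduced cells. The study described the NRASG12D cultures as mostly mast cells, so a comparison with them is also a comparison of cell types. Nothing in the labels says that libraries of a group came from separate animals or cultures, so p-values measure the spread between these libraries, which may be technical.

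Mast cells and basophils store histamine and serotonin in granules and make prostaglandins and leukotrienes on demand. Histamine is made from histidine by histidine decarboxylase (Hdc). Serotonin is made from tryptophan by tryptophan hydroxylase 1 (Tph1), the rate-limiting enzyme outside the brain, and then by aromatic amino acid decarboxylase (Ddc), and the vesicular monoamine transporter VMAT2 (Slc18a2) loads both amines into granules. Arachidonic acid, released from membranes by phospholipase A2, is turned by the cyclooxygenases (Ptgs1 and Ptgs2) into prostaglandin H2, from which hematopoietic prostaglandin D synthase (Hpgds) makes prostaglandin D2. The other branch starts with 5-lipoxygenase (Alox5) and its membrane partner FLAP (Alox5ap), which together give leukotriene A4. Leukotriene C4 synthase (Ltc4s) joins this to glutathione, and leukotriene A4 hydrolase (Lta4h) makes leukotriene B4 of it instead.

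Upstream sequences of 4 of these genes are given because 3 of them (Tph1, Slc18a2 and Alox5) fell in combined cells from high levels in NRASG12D cells, while the other (Hdc) was higher there than in NRASG12D cells. RefSeq held an entry for 9 of the 10 genes on GRCm38.p6, and Alox5ap had none. Each sequence runs 5′ to 3′ on the strand of the gene and covers the 250 bases before the RefSeq start. Capitals mark a GC box (GGGCGG), a RUNX motif (TGTGGT) or a GATA motif (AGATAA or TGATAA), read on either strand. Tph1 covers chr7:46672538-46672787 (minus strand), Slc18a2 covers chr19:59260628-59260877 (plus strand), Alox5 covers chr6:116461179-116461428 (minus strand) and Hdc covers chr2:126618679-126618928 (minus strand). The RefSeq start of Hdc lies 621 bases inside the start of the longest GENCODE gene model, so the printed stretch lies within that model. Whether it overlaps exons was not tested.
Tph1: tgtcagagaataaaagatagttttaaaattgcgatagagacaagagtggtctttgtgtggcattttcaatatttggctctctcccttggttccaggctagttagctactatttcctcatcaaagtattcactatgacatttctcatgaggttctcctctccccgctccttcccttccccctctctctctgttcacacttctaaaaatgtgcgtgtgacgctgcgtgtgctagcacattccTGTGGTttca
Slc18a2: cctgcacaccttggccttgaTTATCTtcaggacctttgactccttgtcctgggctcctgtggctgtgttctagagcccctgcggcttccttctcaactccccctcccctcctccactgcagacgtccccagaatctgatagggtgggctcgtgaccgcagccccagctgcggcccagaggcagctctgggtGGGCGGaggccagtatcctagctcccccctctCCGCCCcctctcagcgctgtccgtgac
Alox5: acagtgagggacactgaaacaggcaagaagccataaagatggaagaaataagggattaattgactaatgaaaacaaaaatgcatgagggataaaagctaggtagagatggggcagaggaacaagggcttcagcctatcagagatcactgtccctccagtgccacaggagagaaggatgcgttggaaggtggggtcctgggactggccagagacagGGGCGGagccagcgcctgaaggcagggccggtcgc
Hdc: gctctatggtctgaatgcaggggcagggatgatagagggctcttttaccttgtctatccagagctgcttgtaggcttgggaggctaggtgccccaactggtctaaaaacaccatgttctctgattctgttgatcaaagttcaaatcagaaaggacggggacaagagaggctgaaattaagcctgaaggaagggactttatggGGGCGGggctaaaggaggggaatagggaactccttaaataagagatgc
The RUNX letters stood 10 to 5 bases before the start of Tph1 and were in 4 of the 9 members searched, against 14.0% of 32851 promoters of this length. A GC box was in 4 members and in 32.7% of promoters. The GATA letters were in Slc18a2 alone of the 9, against 16.6% of promoters. Of the other letters searched, an E-box (CACGTG or CATGTG, 17.6% of promoters) was in Hpgds, a TATA box (TATAAA, 12.4%) in Ddc and a CCAAT box (CCAAT, 33.8%) in none. A match only describes these letters, and none of these motifs was in all 4 printed genes.

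Levels are FPKM, fragments scaled to transcript length and library depth, as deposited. Differences are log2 fold changes on the log2(FPKM + 1) scale from limma, with Benjamini-Hochberg adjustment over 13493 tested genes. This scale understates the change of genes with low FPKM, and fold values given without log2 are ratios of mean FPKM. The depth, estimated from the steps between low values, was 22460000 to 35360000 fragments per library. All 10 genes passed the filter, a value of 1 FPKM or more in 3 or more libraries. Ptgs2 passed with 3 combined libraries and 1 NUP98-NSD1 library, and Ddc with all but the combined libraries. Some genes of the pathway and marker lists used further on, such as Ltf, Camp, Mgst1 and Cysltr1, were under 1 FPKM in all NRASG12D libraries. They entered the test only through the other groups, so a call of them against NRASG12D cells could hardly be other than a rise. The 3 comparisons share their groups of libraries and are not independent of each other.

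Tph1, Ddc, Slc18a2, Hpgds, Ltc4s and Alox5 were highest in NRASG12D cells, lower in NUP98-NSD1 cells and lowest in combined cells, while Hdc, Ptgs1 and Ptgs2 were lowest in NRASG12D cells. Against NRASG12D cells, 7 of the 10 genes fell in NUP98-NSD1 cells, where 9.98% of all tested genes fell, and 3 rose, where 42.2% of all tested genes rose. The groups did not overlap for any of the 10, where 64.2% of all genes did not overlap. In combined cells, again against NRASG12D, 6 fell (14.1% of all genes), 3 rose (24.2%) and 9 did not overlap (58.6%). When combined cells were set against NUP98-NSD1 cells, 5 fell (6.31% of all genes), none rose (2.30%) and 7 did not overlap (31.4%). The median log2 fold change of the 10 genes was -0.78, -2.94 and -1.54 in this order, beside 0.27, 0.23 and -0.059 over all tested genes. Relative to those medians of all genes the falls were larger and the rises smaller against NRASG12D cells, with Hdc at 4.04, Ptgs2 at 0.22, Alox5ap at -1.01 and Tph1 at -1.51 in NUP98-NSD1 cells, and Hdc at 2.98, Ptgs2 at 0.96, Alox5ap at -0.74 and Tph1 at -6.13 in combined cells. With median-ratio scaling, 7 of the 10 fell and 2 rose in NUP98-NSD1 against NRASG12D cells. There 52.3% of the 6183 genes called were higher, against 80.9% of 7036 with FPKM as deposited. Quantile normalization gave the same member counts, with 43.2% of 6066 genes called higher. A single fit to all 9 libraries, whose shared spread includes that of the combined cells, did not call Tph1, Slc18a2, Hpgds, Alox5 and Ptgs2 in NUP98-NSD1 against NRASG12D cells (adjusted p of 0.0860 to 0.197). Without the filter on low values, 7 of the 10 were called in NUP98-NSD1 against NRASG12D cells, with Ddc, Hpgds and Ptgs2 lost (adjusted p = 0.0687, 0.0620 and 0.156), and Ltc4s alone of the 5 falls from NUP98-NSD1 to combined cells was called.

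**Figure D1:**
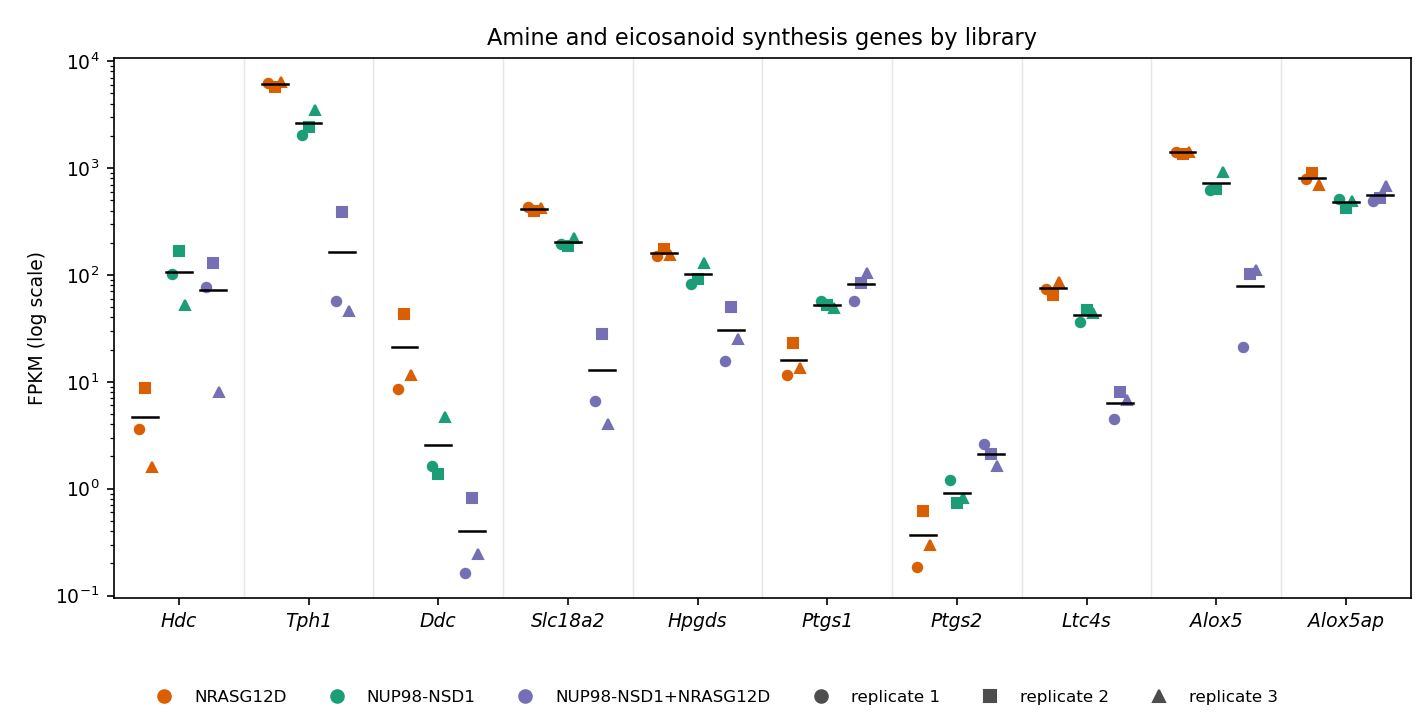
FPKM of the 10 genes (log axis) in each of the 9 libraries, with colour for the group, shape for the replicate and a bar at the mean of 3 libraries. Tph1, Slc18a2, Ltc4s and Alox5 step down from NRASG12D to NUP98-NSD1 to combined cells without overlap, and Hdc, Ptgs1 and Ptgs2 have their lowest values in NRASG12D cells.

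**Figure D2:**
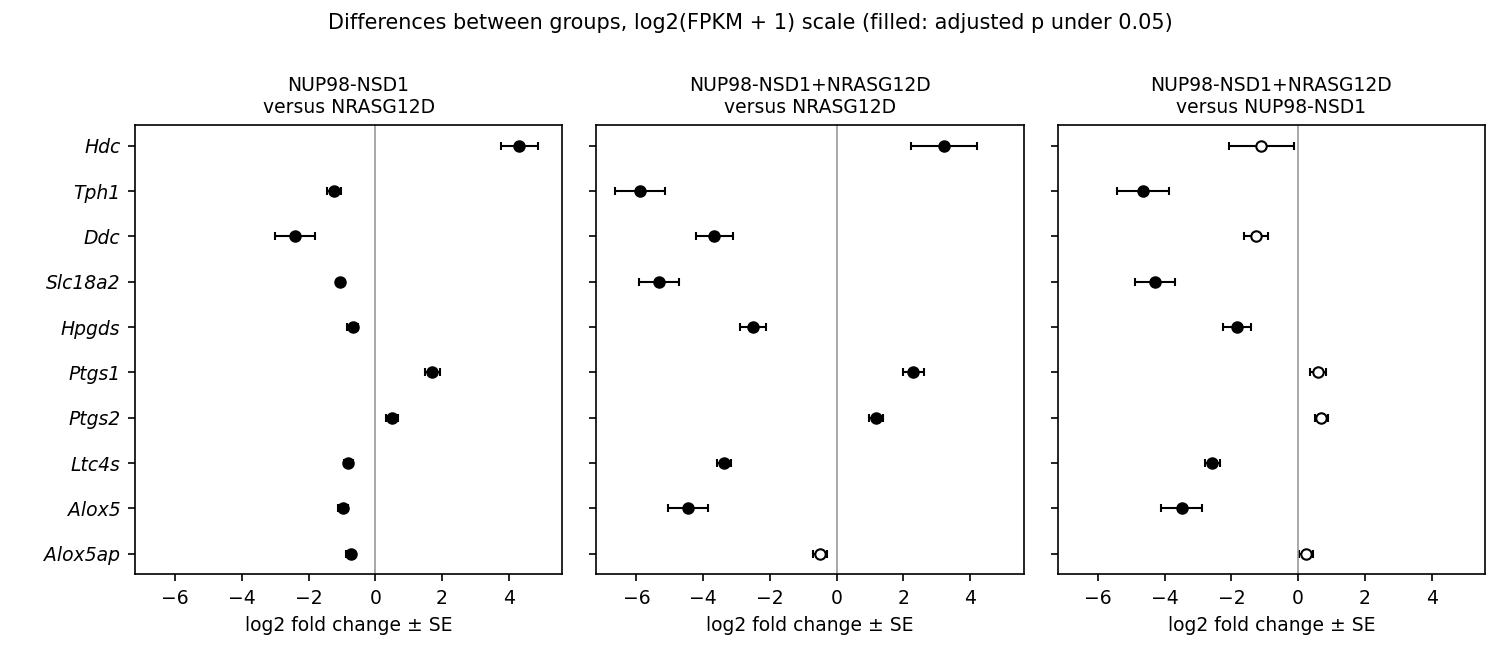
Log2 fold changes of the 10 genes on the log2(FPKM + 1) scale in the 3 comparisons, with bars of 1 SE and filled points for an adjusted p under 0.05 (limma, 6 libraries in each fit). The points of Tph1 and Slc18a2 lie near -1 in the left panel and at -5.90 and -5.33 in the middle panel.

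The cultures differed in cell type markers beside these genes. The summed FPKM of 10 mast cell markers was 30044 to 32682 FPKM in NRASG12D, 13585 to 17443 FPKM in NUP98-NSD1 and 457 to 2397 FPKM in combined cells. This sum leaves out the mast cell carboxypeptidase Cpa3, which is listed at 0 in the 3 NRASG12D libraries, although other mast cell proteases are high there, and at 12564 to 14378 FPKM in NUP98-NSD1 cells. Of the 10 mast cell markers tested (Cpa3 among them, Mrgprb1 not), 9 fell and Cpa3 was called higher in combined against NRASG12D cells. In NUP98-NSD1 against NRASG12D cells 5 fell (7 with median-ratio scaling and 6 with quantile normalization) and 2, Cpa3 and Mcpt4, were called higher. In combined against NUP98-NSD1 cells 8 fell and none rose. Mrgprb1, a receptor of connective tissue mast cells, stayed at or under 1.09 FPKM in every library. In bulk RNA, fewer cells of a type and less RNA per cell cannot be told apart.

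Markers of other myeloid cells ran the other way. The sum of 9 neutrophil granule genes was 26.6 to 34.4 FPKM in NRASG12D, 1725 to 6122 FPKM in NUP98-NSD1 and 8860 to 19446 FPKM in combined cells, and all 9 genes rose in both comparisons with NRASG12D cells. The sum of 7 monocyte and macrophage genes was 44.1 to 125 FPKM, 1685 to 2292 FPKM and 5013 to 14100 FPKM in the same order, and again all 7 rose in both. In combined against NUP98-NSD1 cells 3 of the 9 and 3 of the 7 rose and none fell, with 1 and 2 rising under median-ratio scaling and 2 and 3 under quantile normalization. Of the 5 megakaryocyte genes, with sums of 616 to 683, 298 to 390 and 78.1 to 1224 FPKM, 3 fell in both comparisons with NRASG12D cells, 2 rose in NUP98-NSD1 and 1 in combined cells, and 2 fell in combined against NUP98-NSD1 cells. The part of these cell types in the results that follow was not tested. As a check of the labels, Nras was at 348 to 479 FPKM in NRASG12D, at 47.7 to 51.2 FPKM in NUP98-NSD1 and at 245 to 701 FPKM in combined cells, and the fusion's target Hoxa9 was at or under 0.101 FPKM in NRASG12D and at 37.4 or more in the other libraries. Of the genes joined in the fusion, Nup98 rose in NUP98-NSD1 against NRASG12D cells (log2 fold change 0.79, adjusted p = 0.00141) but did not pass in combined cells (0.55, adjusted p = 0.0818). Nsd1 passed in no comparison (adjusted p = 0.623, 0.969 and 0.888), so these 2 genes do not separate the labels cleanly.

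**Figure D3:**
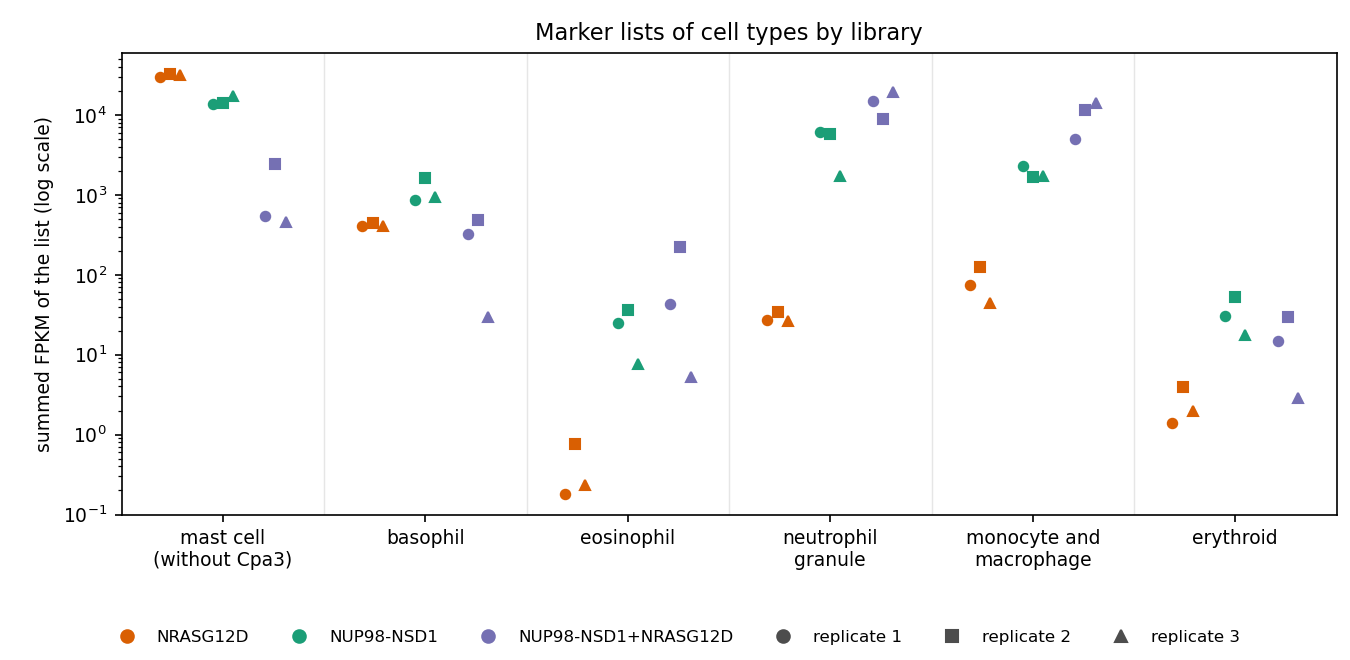
Summed FPKM of 6 marker lists (log axis) in each of the 9 libraries, by group (colour) and replicate (shape). The mast cell sum goes from at least 30044 FPKM in NRASG12D to at most 2397 FPKM in combined cells, while the neutrophil granule and monocyte sums are highest in the latter.

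Tph1 and Slc18a2, which make and store serotonin, were both high in NRASG12D cells and fell in each of the other groups. Tph1 (ENSMUSG00000040046.14, GRCm38 chr7:46644641-46672537, minus strand) had 6189, 5691 and 6354 FPKM in NRASG12D replicates 1 to 3, 2033, 2399.5 and 3493 FPKM in NUP98-NSD1, and 57.0, 389 and 45.7 FPKM in combined cells. The 3 groups were fully apart, and replicate 2 stood highest in the last. The mean was 6078 ± 345 FPKM (SD, n = 3), 2642 ± 760 FPKM and 164 ± 195 FPKM in this order. Against NRASG12D, NUP98-NSD1 cells were lower by a log2 fold change of -1.24 (SE 0.20, adjusted p = 0.00318). In combined cells it fell by 5.90 against NRASG12D (SE 0.76, adjusted p = 0.00135), a ratio of means of 37.1, and fell by 4.66 against NUP98-NSD1 cells (SE 0.78, adjusted p = 0.0180). The last of these missed the threshold in 4 of the 6 fits without a library, each without a NUP98-NSD1 library and that without combined replicate 3. Over all 6 fits the log2 fold change ran from -5.63 to -4.10, with the highest adjusted p at 0.0815. Without combined replicate 2, the change was -5.63 and past the threshold.

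Slc18a2, which moves both amines into granules (ENSMUSG00000025094.8, chr19:59260896-59296012, plus strand), followed Tph1. It had 431, 394 and 424 FPKM in NRASG12D, 196, 186 and 224 FPKM in NUP98-NSD1, and 6.60, 28.2 and 3.99 FPKM in combined cells. Again the groups did not overlap and replicate 2 was the highest of the last group. It fell by 1.04 on the log2 scale in NUP98-NSD1 cells (SE 0.09, adjusted p = 0.000531) and fell by 5.33 in combined cells (SE 0.60, adjusted p = 0.000782) against NRASG12D. From NUP98-NSD1 to combined cells it fell by 4.29 (SE 0.60, adjusted p = 0.0108), which missed the threshold without NUP98-NSD1 replicate 3 (-4.21, adjusted p = 0.0527). Its highest library had 108 times the level of its lowest, and for Tph1 this was 139 times. The ratio of Tph1 to Slc18a2 in a library, chosen after the values were seen, moved far less. It was 14.4, 14.5 and 15.0 in NRASG12D, 10.4, 12.9 and 15.6 in NUP98-NSD1 and 8.63, 13.8 and 11.5 in combined cells, a span of 1.81-fold over the 9 libraries.

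Ddc, the second enzyme of serotonin synthesis (ENSMUSG00000020182.16, chr11:11814101-11898144, minus strand), was far lower than Tph1 in every library. It had 8.53, 43.2 and 11.6 FPKM in NRASG12D, 1.64, 1.37 and 4.66 FPKM in NUP98-NSD1, and 0.162, 0.810 and 0.246 FPKM in combined cells, without overlap. If all came from the longest transcript, the last 3 values would be about 9.22, 39.8 and 11.2 fragments. Ddc fell by 2.41 on the log2 scale in NUP98-NSD1 (SE 0.60, adjusted p = 0.0137) and fell by 3.66 in combined cells (SE 0.56, adjusted p = 0.00268) against NRASG12D. The step from NUP98-NSD1 to combined cells was -1.25 on the same scale (SE 0.36), which did not pass (adjusted p = 0.0833). The first of these missed the threshold without NUP98-NSD1 replicate 2 (-2.17, adjusted p = 0.0523). The antisense gene 1700042O10Rik lies within Ddc and had 2.83, 13.9 and 3.59 FPKM in NRASG12D libraries, with the same replicate highest. Counting by strand is not stated. Of the 50-base stretches of Ddc transcripts, 0.563% are shared with transcripts of other genes, and 1700042O10Rik is not among those genes.

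Hdc, which makes histamine, went against the serotonin genes (ENSMUSG00000027360.5, chr2:126593667-126619299, minus strand). It had 3.61, 8.72 and 1.60 FPKM in NRASG12D, 102, 169 and 51.8 FPKM in NUP98-NSD1, and 77.5, 129 and 8.08 FPKM in combined cells. Replicate 2 was the highest and replicate 3 the lowest in each group. NUP98-NSD1 and NRASG12D cells did not overlap, while combined replicate 3 lay under NRASG12D replicate 2. Hdc was 23.1-fold higher in NUP98-NSD1 than in NRASG12D cells (log2 fold change 4.31, SE 0.56, adjusted p = 0.00156), with a log2 fold change of 3.86 to 4.81 over the alternatives tried, past the threshold in each. For combined against NRASG12D cells it was 3.21 (SE 0.99, adjusted p = 0.0408). That call was lost in 5 of the 6 fits without a library (it held without combined replicate 3, at 4.37) and under 4 of 7 other alternatives, with log2 fold changes of 1.90 to 4.37 and adjusted p up to 0.135. A two-sided exact permutation test of these 6 libraries gave p = 0.2, where 0.1 is the smallest possible. The difference between combined and NUP98-NSD1 cells (log2 fold change -1.10, SE 0.98, adjusted p = 0.581) changed sign without combined replicate 3 (0.057, adjusted p = 0.985).

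The ratio of Hdc to Slc18a2, also chosen after the values were seen, lay at 0.0038 to 0.0222 for NRASG12D, 0.232 to 0.906 for NUP98-NSD1 and 2.02 to 11.7 for combined cells, without overlap. Basophils make histamine and carry the proteases Mcpt8 and Prss34. Mcpt8 was at 47.9, 16.2 and 52.0 FPKM in NRASG12D, 573, 991 and 693 FPKM in NUP98-NSD1, and 200, 333 and 18.0 FPKM in combined cells. Prss34 was at 0.445, 1.11 and 1.47 FPKM, 119, 450 and 41.2 FPKM, and 110, 104 and 4.64 FPKM in the same order. Both were thus lowest in replicate 3 of combined cells, as was Hdc. In NRASG12D cells, where Hdc was highest in replicate 2 and lowest in replicate 3, Mcpt8 was lowest in replicate 2 and Prss34 highest in replicate 3. In NUP98-NSD1 cells Prss34 was lowest in replicate 3, as was Hdc, but Mcpt8 was lowest in replicate 1. The third basophil marker, Cd200r3, fell with the mast cell genes, from 352 to 429 FPKM in NRASG12D to 6.63 to 49.8 FPKM in combined cells. Over these 3 markers the sum was 406 to 447 FPKM, 858 to 1603 FPKM and 29.2 to 487 FPKM, with 2 called higher and 1 lower in NUP98-NSD1 against NRASG12D cells, 1 higher and 1 lower in combined against NRASG12D cells, and 1 lower in combined against NUP98-NSD1 cells. The eosinophil genes Prg2, Epx, Siglecf and Ccr3 summed to 0.182 to 0.758 FPKM, 7.57 to 36.3 FPKM and 5.31 to 220.4 FPKM, and of the 3 tested 3 rose in NUP98-NSD1 and 2 in combined cells against NRASG12D. Of the 3 erythroid genes, 2 were tested, the globin Hbb-bt (1.22 to 3.42 FPKM, 15.96 to 48.7 FPKM and 2.36 to 29.05 FPKM) and Klf1, and both passed the test, as rises, in NUP98-NSD1 against NRASG12D cells and in neither other comparison. The part of any of these cell types in the Hdc values was not tested.

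Other genes of the amine pathway were read from fixed lists of 13 genes for synthesis and 12 for uptake, breakdown and receptors. Of the 6 synthesis and cofactor genes tested, 3 rose and 2 fell in NUP98-NSD1 against NRASG12D cells, and 0 rose and 2 fell in each of the other comparisons. Of all tested genes 42.2% rose and 9.98% fell in the first comparison. In combined cells 24.2% rose and 14.1% fell against NRASG12D, and 2.30% rose and 6.31% fell against NUP98-NSD1. The rises in this short list are thus near the share of all genes. The falls in the list were those of Gch1, the first enzyme of the hydroxylases' cofactor tetrahydrobiopterin, and of Pcbd1, which recycles it. Gch1 was at 78.4, 98.6 and 83.8 FPKM in NRASG12D, 46.8, 51.4 and 73.0 FPKM in NUP98-NSD1, and 4.35, 23.6 and 13.003 FPKM in combined cells, a log2 fold change of -2.84 (SE 0.51, adjusted p = 0.00533) between the last group and NRASG12D. The groups did not overlap. The falls from NUP98-NSD1 to combined cells were lost with median-ratio scaling of the libraries, as were 2 of the 3 rises (Spr and Pcbd2, with Qdpr remaining). The brain enzyme Tph2 was at or under 0.0515 FPKM in every library.

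Of the 7 uptake, breakdown and receptor genes tested, 1 rose and 2 fell (4 with either other scaling) in NUP98-NSD1 cells against NRASG12D. Of all tested genes 42.2% rose and 9.98% fell there. None rose and 4 fell in combined cells, both against NRASG12D (24.2% and 14.1% of all tested genes) and against NUP98-NSD1 (2.30% and 6.31%). Against NUP98-NSD1 cells, 3 fell with median-ratio scaling. Maob, a monoamine oxidase, went from 272, 206 and 304 FPKM in NRASG12D and 170.1, 169 and 221 FPKM in NUP98-NSD1 to 2.57, 23.2 and 2.77 FPKM in combined cells. It fell by 5.23 on the log2 scale against NRASG12D (SE 0.71, adjusted p = 0.00170) and fell by 4.76 against NUP98-NSD1 cells (SE 0.71, adjusted p = 0.0127). The histamine receptor Hrh4 was at 22.2 to 26.6 FPKM, 4.502 to 7.47 FPKM and at most 1.01 FPKM, and fell in all 3 comparisons. So did Hrh2, from 20.8 to 21.95 FPKM in NRASG12D to 3.24 to 4.99 FPKM in combined cells. Slc22a3, a low-affinity amine transporter, rose in NUP98-NSD1 cells by a log2 fold change of 2.43 (SE 0.33, adjusted p = 0.00183). In combined cells it was at 3.69, 9.52 and 0.212 FPKM. It fell there by 2.99 on the log2 scale against NUP98-NSD1 cells (SE 0.72, adjusted p = 0.04996) and did not pass against NRASG12D (adjusted p = 0.585). The serotonin transporter Slc6a4 and Maoa stayed at or under 4.65 FPKM and passed in no comparison. Hnmt, which inactivates histamine in the cell, was not tested under the filter. It was at or under 0.299 FPKM in the NRASG12D and NUP98-NSD1 libraries and at 0.120, 1.504 and 12.6 FPKM in combined cells.

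The lipoxygenase and its partner, which work together in leukotriene synthesis, came apart. Alox5 (ENSMUSG00000025701.12, chr6:116410077-116461178, minus strand) had 1415, 1358 and 1425 FPKM in NRASG12D, 619, 637 and 924 FPKM in NUP98-NSD1, and 21.1, 103 and 112 FPKM in combined cells. Alox5ap (ENSMUSG00000060063.9, chr5:149264767-149288153, plus strand) had 793, 902 and 700.1 FPKM, 507, 423 and 496 FPKM, and 486, 521 and 680.3 FPKM. Alox5 kept the groups apart with a 67.7-fold span over the libraries, and Alox5ap spanned 2.13-fold.

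Alox5 fell by 0.97 on the log2 scale in NUP98-NSD1 (SE 0.16, adjusted p = 0.00336) and fell by 4.46 in combined cells (SE 0.60, adjusted p = 0.00161) against NRASG12D, and fell by 3.49 between combined and NUP98-NSD1 cells (SE 0.62, adjusted p = 0.0213). The last was lost in each fit without a NUP98-NSD1 library (adjusted p up to 0.0920) and held without each combined library. Alox5ap fell by 0.74 in NUP98-NSD1 cells (SE 0.12, adjusted p = 0.00344). In combined cells its log2 fold change against NRASG12D was -0.51 (SE 0.21), with no overlap but short of the threshold (adjusted p = 0.0961). With median-ratio scaling this became -0.71 and passed (adjusted p = 0.0460). It also passed with quantile normalization (-0.79, adjusted p = 0.0186) and in the single fit to 9 libraries (adjusted p = 0.0412). These were 3 of the 7 other alternatives, and none of the fits without a library passed. From NUP98-NSD1 to combined cells it was 0.23 (SE 0.21, adjusted p = 0.597), with groups that overlapped. The ratio of Alox5 to Alox5ap was 1.78, 1.51 and 2.04 in NRASG12D and 1.22, 1.51 and 1.86 in NUP98-NSD1 cells, which overlap, and 0.0433, 0.198 and 0.164 in combined cells, all below the others. This ratio was chosen after the values were seen. The antisense gene Gm19719, at most 0.325 FPKM, shares 6.80% of the 50-base stretches of Alox5ap.

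Against NRASG12D cells, at the branch after leukotriene A4, the gene for the cysteinyl leukotrienes fell and that for leukotriene B4 rose. Ltc4s (ENSMUSG00000020377.15, chr11:50236461-50238616, minus strand) had 74.3, 64.3 and 85.9 FPKM in NRASG12D, 35.9, 46.9 and 43.7 FPKM in NUP98-NSD1, and 4.48, 7.996 and 6.72 FPKM in combined cells, 3 groups without overlap and with little spread. The log2 fold changes were -0.81 (SE 0.14, adjusted p = 0.00385), -3.38 (SE 0.22, adjusted p = 0.000124) and -2.57 (SE 0.23, adjusted p = 0.00542) for NUP98-NSD1 against NRASG12D, combined against NRASG12D and combined against NUP98-NSD1 cells. Each of these was past the threshold in all 6 fits without a library and in all 7 other alternatives. Ltc4s is short, so its lowest value of 4.48 FPKM would be about 90.2 fragments of the longest transcript, and 15.2% of its 50-base stretches are shared with the antisense gene Gm26542, which stayed at or under 2.42 FPKM.

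Lta4h, which makes leukotriene B4, had 137, 141 and 141 FPKM in NRASG12D, 342, 330.3 and 192 FPKM in NUP98-NSD1, and 599, 329 and 395 FPKM in combined cells. It rose by a log2 fold change of 0.99 (SE 0.21, adjusted p = 0.00802) and 1.61 (SE 0.24, adjusted p = 0.00241) against NRASG12D, also after both other scalings, and the last groups overlapped. The ratio of Ltc4s to Lta4h, chosen after the values were seen, lay at 0.457 to 0.609 for NRASG12D, 0.105 to 0.228 for NUP98-NSD1 and 0.00747 to 0.0243 for combined cells, an 81.5-fold span. Mgst2, a membrane glutathione transferase that can also make leukotriene C4, rose with a log2 fold change of 3.38 (SE 0.50, adjusted p = 0.00241) in NUP98-NSD1 and 4.64 (SE 0.28, adjusted p = 9.39e-05) in combined cells. It stood at 1.88 to 3.58 FPKM in NRASG12D, 14.6 to 66.6 FPKM in NUP98-NSD1 and 66.4 to 122 FPKM in combined cells. In NRASG12D cells Ltc4s was 18.0 to 45.6 times as high as Mgst2, and in combined cells 0.0552 to 0.120 times.

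Over the list of 17 other leukotriene and lipoxygenase genes, 9 were tested, of which 7 rose and 2 fell in NUP98-NSD1, and 7 rose and 1 fell in combined cells against NRASG12D. In combined against NUP98-NSD1 cells 3 rose and none fell. Their median log2 fold changes were 0.99, 1.88 and 0.90, beside 0.27, 0.23 and -0.059 over all tested genes. Of all tested genes 42.2%, 24.2% and 2.30% rose. Mgst1 and Ggt5, at most 0.176 and 0.469 FPKM in NRASG12D cells, passed the filter only through the other groups. Dpep2 reached 1 FPKM in NRASG12D replicate 2 alone of that group. The counts and medians against NRASG12D therefore lean towards rises. With quantile normalization the first count of rises in this list was 5, and the others were 7 and 4. The largest rises were those of Mgst1, a glutathione transferase (at most 0.176 FPKM in NRASG12D and 83.3 to 105 FPKM in combined cells), and of Dpep2, a dipeptidase that cuts leukotriene D4 to E4 (at most 1.33 FPKM and 54.1 to 88.8 FPKM). The exporter Abcc1, which carries leukotriene C4 out of the cell, fell from 36.6 to 41.1 FPKM in NRASG12D to 14.8 to 22.4 FPKM in combined cells (log2 fold change -1.04, SE 0.18, adjusted p = 0.00451).

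Leukotriene receptors split in direction. The high-affinity leukotriene B4 receptor gene Ltb4r1 had 3.19 to 4.18 FPKM in NRASG12D, 27.5 to 50.5 FPKM in NUP98-NSD1 and 67.3 to 92.3 FPKM in combined cells. It rose by a log2 fold change of 2.94 (SE 0.22, adjusted p = 0.000246) and 3.99 (SE 0.18, adjusted p = 4.24e-05) against NRASG12D. Cysltr1, a receptor for the cysteinyl leukotrienes, rose from at most 0.149 FPKM to 1.35 to 3.65 FPKM and 8.94 to 18.7 FPKM, past the threshold in all 3 comparisons. Ltb4r2, a low-affinity leukotriene B4 receptor, fell in all 3, from 2.44 to 7.45 FPKM in NRASG12D to at most 0.408 FPKM in combined cells. Of the 5 receptors listed, 3 were tested, and these counts (2 rising and 1 falling against NRASG12D) were the same under both other scalings. Cysltr1 passed the filter only through the other groups. Of all tested genes 42.2% rose in NUP98-NSD1 and 24.2% in combined cells against NRASG12D.

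**Figure D4:**
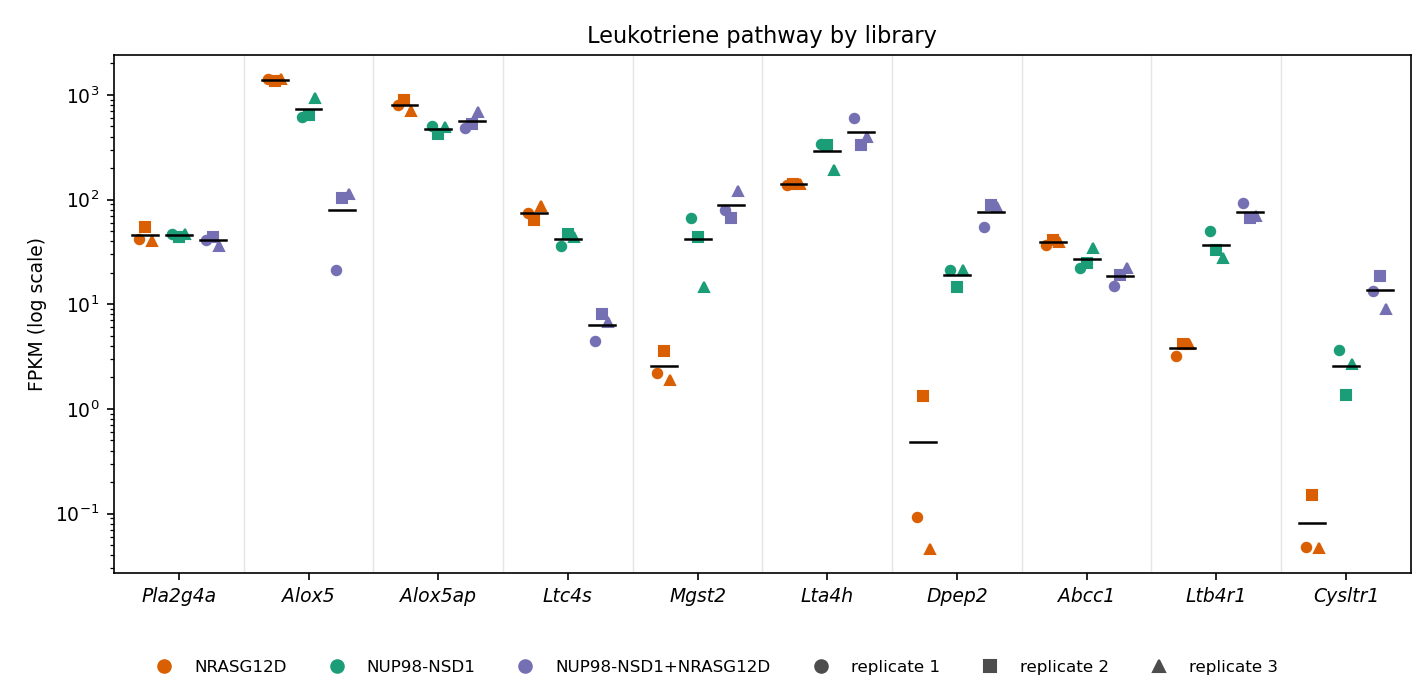
FPKM of 10 leukotriene pathway genes (log axis) in each library, by group (colour) and replicate (shape), with a bar at the mean of 3 libraries. Alox5 and Ltc4s fall to 21.1 to 112 and 4.48 to 7.996 FPKM in combined cells, while Mgst2, Dpep2, Ltb4r1 and Cysltr1 rise and Pla2g4a stays between 36.3 and 54.1 FPKM.

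The main enzyme that frees arachidonic acid passed the test in no comparison. Pla2g4a, the cytosolic phospholipase that releases it, was at 42.3, 54.1 and 40.1 FPKM in NRASG12D, 47.0, 44.0 and 46.9 FPKM in NUP98-NSD1, and 41.5, 44.2 and 36.3 FPKM in combined cells. All groups overlapped, and its log2 fold changes of 0.026, -0.15 and -0.18 (SE 0.12, 0.17 and 0.14) did not pass (adjusted p = 0.869, 0.496 and 0.528). Of the 9 release and re-esterification genes tested, 1 rose and 3 fell in NUP98-NSD1, 2 rose and 3 fell in combined cells against NRASG12D, and 1 fell from NUP98-NSD1 to combined cells. Of all tested genes 42.2% rose and 9.98% fell in the first comparison, 24.2% rose and 14.1% fell in the second, and 6.31% fell in the third. Mboat7, which returns arachidonate to phosphatidylinositol, fell in all 3, from 138 to 148 FPKM in NRASG12D to 40.5 to 54.7 FPKM in combined cells, and Lpcat2 fell in both comparisons with NRASG12D. Pla2g12a, a secreted phospholipase, rose from at most 0.670 FPKM in NRASG12D to 4.38 to 10.5 FPKM in combined cells.

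In the prostaglandin branch the cyclooxygenases rose and the prostaglandin D synthase fell against NRASG12D cells. Ptgs1, the constitutive cyclooxygenase (ENSMUSG00000047250.13, chr2:36230426-36252272, plus strand), had 11.5, 23.03 and 13.5 FPKM in NRASG12D, 57.0, 51.9 and 48.6 FPKM in NUP98-NSD1, and 56.5, 83.8 and 105 FPKM in combined cells. NRASG12D cells lay below all others, and the other groups overlapped. It rose by a log2 fold change of 1.71 (SE 0.23, adjusted p = 0.00175) in NUP98-NSD1 and 2.29 (SE 0.32, adjusted p = 0.00179) in combined cells against NRASG12D, in every alternative. Combined against NUP98-NSD1 cells gave 0.59 (SE 0.24, adjusted p = 0.189), and it passed only without combined replicate 1 (0.83, adjusted p = 0.0213) and with limma's array weights (0.80, adjusted p = 0.0140).

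Ptgs2, the inducible cyclooxygenase (ENSMUSG00000032487.8, chr1:150100031-150108227, plus strand), was low throughout. It had 0.185, 0.621 and 0.296 FPKM in NRASG12D, 1.21, 0.731 and 0.813 FPKM in NUP98-NSD1, and 2.63, 2.09 and 1.61 FPKM in combined cells, without overlap. The smallest of these values would be about 19.8 fragments. Against NRASG12D the log2 fold change was 1.19 in combined cells (SE 0.21, adjusted p = 0.00471). In NUP98-NSD1 cells it was 0.49 (SE 0.18, adjusted p = 0.0497), a call that was lost in 5 of the 6 fits without a library and under 5 of 7 other alternatives and whose sign turned with quantile normalization (-0.20, adjusted p = 0.341). From NUP98-NSD1 to combined cells it was 0.69 (SE 0.19, adjusted p = 0.0747).

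Hpgds (ENSMUSG00000029919.5, chr6:65117293-65144908, minus strand) had 151, 174 and 153 FPKM in NRASG12D, 82.9, 90.7 and 129 FPKM in NUP98-NSD1, and 15.8, 50.1 and 24.96 FPKM in combined cells. The groups did not overlap. It fell by 0.68 on the log2 scale (SE 0.17, adjusted p = 0.0136) in NUP98-NSD1 and fell by 2.51 (SE 0.38, adjusted p = 0.00259) in combined cells against NRASG12D. Without NUP98-NSD1 replicate 2 the first missed the threshold (-0.61, adjusted p = 0.0537). The step from NUP98-NSD1 to combined cells, -1.83 (SE 0.41, adjusted p = 0.0401), was lost in 4 of the 6 fits without a library, namely each without a NUP98-NSD1 library and that without combined replicate 3, with both other scalings and without a filter, with adjusted p up to 0.160. Ptgs1 was 0.0764 to 0.132 times the level of Hpgds in NRASG12D, 0.376 to 0.687 times in NUP98-NSD1 and 1.67 to 4.20 times in combined cells.

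Thromboxane synthase (Tbxas1), which uses the same prostaglandin H2, ran beside Hpgds. It was at 166 to 178 FPKM in NRASG12D, 96.8 to 127 FPKM in NUP98-NSD1 and 26.5 to 65.6 FPKM in combined cells and fell by 2.01 on the log2 scale in the last against NRASG12D (SE 0.31, adjusted p = 0.00268). The ratio of Hpgds to Tbxas1 stayed between 0.595 and 1.02 over the 9 libraries. Combined cells, at 0.595 to 0.764, lay below NRASG12D (0.886 to 0.978) and NUP98-NSD1 cells (0.832 to 1.02). Of the 9 other prostanoid synthesis and breakdown genes tested, Tbxas1 included, 3 rose and 2 fell in each comparison with NRASG12D (2 rose and 2 fell in each with median-ratio scaling, and with quantile normalization 1 rose and 2 fell in NUP98-NSD1 and 2 rose and 3 fell in combined cells), and only Tbxas1 fell between combined and NUP98-NSD1 cells (adjusted p = 0.0454, and 0.0965 with median-ratio scaling). Of all tested genes 42.2% rose and 9.98% fell in NUP98-NSD1 and 24.2% rose and 14.1% fell in combined cells against NRASG12D. Rises were thus about as common in this list as elsewhere. Those in the list included Ptgr1, which reduces prostaglandins, and Abcc4, which exports them. A fall in both comparisons with NRASG12D was that of the carbonyl reductase Cbr1. The inducible prostaglandin E synthase Ptges stayed at or under 4.68 FPKM and rose in combined against NRASG12D cells (log2 fold change 1.37, SE 0.43, adjusted p = 0.0425), a call lost with median-ratio scaling (adjusted p = 0.0574) and with quantile normalization. Ptgds, which makes prostaglandin D2 in brain, and Hpgd, which breaks prostaglandins down, were not tested under the filter and stayed at or under 0.832 and 3.81 FPKM. Of the prostanoid receptors, 3 of 9 were tested, and Ptger3, a prostaglandin E2 receptor, fell in all 3 comparisons from 68.0 to 78.2 FPKM in NRASG12D to 1.42 to 11.7 FPKM in combined cells. The last of these, combined against NUP98-NSD1 cells, had an adjusted p of 0.0424, and of 0.0543 with median-ratio scaling. Ptger4 fell in combined against NRASG12D cells (log2 fold change -1.20, SE 0.31, adjusted p = 0.0238), and Ptgir passed in none.

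**Figure D5:**
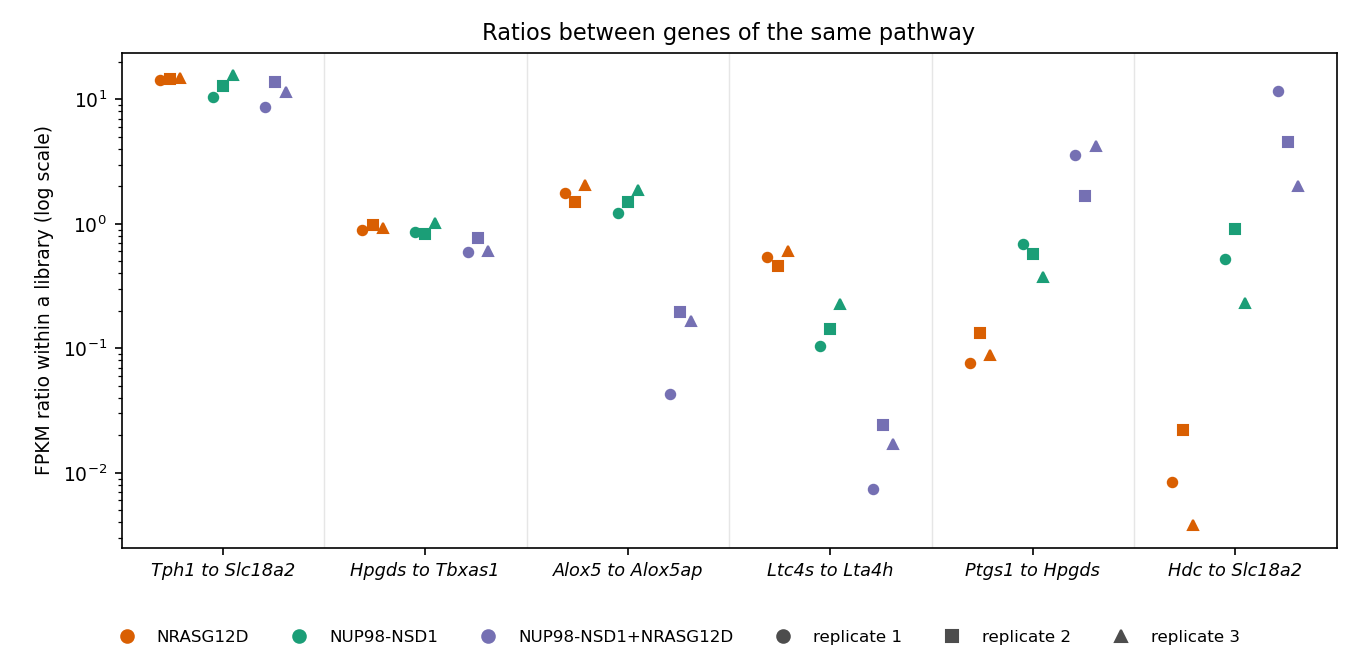
FPKM ratios between pairs of genes within each library (log axis), by group (colour) and replicate (shape). Tph1 to Slc18a2 spans 1.81-fold and Hpgds to Tbxas1 1.71-fold over the 9 libraries, while Ltc4s to Lta4h spans 81.5-fold, and Alox5 to Alox5ap falls only in combined cells.

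By level in NRASG12D cells the order of the genes was Tph1, Alox5, Alox5ap, Slc18a2, Hpgds, Ltc4s, Ddc, Ptgs1, Hdc and Ptgs2. Ltc4s and Hpgds did not overlap there, while Ddc overlapped Ptgs1 and Hdc. In combined cells Alox5ap stood highest in every library, at 486 to 680.3 FPKM, and Tph1, Ptgs1, Alox5 and Hdc overlapped below it.

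Genes whose levels were most like those of a member over the 9 libraries were ranked by Pearson's r among 7249 other tested genes with a mean of at least 10 FPKM (7250 for Ddc and Ptgs2). These coefficients describe 9 libraries that share groups and carry no test. For Slc18a2 they were Il1rl1 (r = 0.999) and the mast cell chymase Cma1 (r = 0.998), and for Tph1 they were Lat, Tpsg1 and Adora3 (r = 0.998 each). Hpgds was nearest to Tbxas1 (r = 0.997), Ltc4s to Prkcb (r = 0.993), Alox5 to Cd63 (r = 0.993) and Ddc to Tmem229b (r = 0.974). Hdc stood nearest to the globin genes Hbb-bs (r = 0.986) and Hbb-bt (r = 0.982). Ptgs1 was nearest to the chemokine gene Ccl6 (r = 0.994), with Ccl9 and the neutrophil gene S100a8 (r = 0.990 and 0.986) next. Alox5ap was nearest to Pstpip2 and Ptgs2 to Snx1 (r = 0.969 and 0.970).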

How the data were processed

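RNA of 9 cultures was sequenced by the authors as paired reads of 50 bp. Per the labels, STAR 2.7.2a, Cufflinks 2.2.1 and GRCm38.p6 were used, and the methods name GENCODE M22. The authors deposited FPKM in a Cufflinks gene table per library, with no counts used here and no further scaling stated. Strand-specific counting and the handling of reads with several alignments are not given in the sources used here. The members and lists were chosen with earlier results of these data known.

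Groups came from the labels. The 55330 lines of each table were summed to 55274 identifiers, of which 54867 had equal coordinates in GENCODE M21. Depth was estimated from the steps between low values of 3386 genes with a single transcript over 2500 bases, and 82.5% to 86.3% of low values fell on whole steps. Floors and fragment numbers cover counting error only. Genes that reached 1 FPKM in 3 or more libraries were compared as log2(FPKM + 1) with limma 3.58.1 in R 4.3.3 (lmFit, eBayes with a trend), each pair of groups on its own 6 libraries without a block, with Benjamini-Hochberg adjustment over 13493 genes and a threshold of 0.05. The methods name DESeq2 on fragment counts, which was not run on FPKM. Exact permutation tests were two-sided. The median absolute log2 difference between libraries of a group was 0.104 to 0.227 for NRASG12D and NUP98-NSD1 and 0.291 to 0.471 for combined cells, and no libraries were merged. Labels name no sequencing batch.

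All 10 members were described, and from each list at most the 3 largest rises and falls past the threshold per comparison, with Hnmt, Maoa, Slc6a4, Pla2g4a, Lta4h, Ptges, Tbxas1, Ptgds, Hpgd, Abcc1 and Gch1 as neighbouring steps. The label checks were Nras, Hoxa9, Nup98 and Nsd1. Other genes named, and the ratios between genes, were chosen after their values were seen. Plaat3 and Dpep1 were not found under these symbols, and of 2 identifiers of Dpep2 the higher was used. Alternatives were a pseudocount of 0.1, no filter, median-ratio scaling, quantile normalization, all 9 libraries in a single fit, limma array weights, a replicate block and fits without each library. Tables and plots were made with Python 3.11.15, pandas 2.3.3, numpy 2.4.6, scipy 1.17.1 and matplotlib 3.10.9.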

Additional observations from a re-analysis of the deposited data

How the results depend on the processing

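Over the 390 results of the 10 genes under alternatives, 337 kept their direction and their side of the threshold, 44 lost and 7 gained a call, and 2 changed sign, Ptgs2 in NUP98-NSD1 against NRASG12D cells with quantile normalization (-0.20) and Hdc in combined against NUP98-NSD1 cells without combined replicate 3 (fits without a library ran from -1.86 to 0.057). In NUP98-NSD1 against NRASG12D cells, 10 of the 10 genes and 7036 of all genes passed, and with all 9 libraries in a single fit 5 and 3065. In combined against NRASG12D cells 5173 genes passed and 2941 to 6327 without a library, with 3069, 3159 and 2941 without NRASG12D replicates 1, 2 and 3. In combined against NUP98-NSD1 cells 1162 genes passed, 152 without a filter, 2251 with 9 libraries in a single fit, 3500 with array weights and 283 to 2509 without a library (417, 302 and 283 without NUP98-NSD1 replicates 1, 2 and 3, and 2509 and 494 without combined replicates 1 and 3). Of the 10 genes, 5 passed there, 1 (Ltc4s) without a filter and 1 to 6 without a library, with 1 without NUP98-NSD1 replicate 3, 2 without NUP98-NSD1 replicate 1 or 2 and 3 without combined replicate 3. The cause of these changes was not tested. Without a filter, 38033 genes were tested in this comparison.

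Labels do not say whether libraries with the same replicate number share a donor or a transduction. The correlation of same-numbered libraries averaged -0.0277, 0.0160 and 0.00211, and at most 2 of 6 libraries of a comparison correlated best with their own number. With 3 libraries in each group, these values cannot exclude a pairing. With the replicate block, 6864, 4531 and 801 genes passed and 9, 9 and 5 of the 10 genes, with Ptgs2 lost in NUP98-NSD1 against NRASG12D cells (adjusted p = 0.1005) and no other call of a member changed. The adjusted p of Hdc in combined against NRASG12D cells went from 0.0408 to 0.00289 with this block.

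Among genes called, 80.9%, 63.1% and 26.8% were higher with FPKM as deposited, 52.3%, 53.1% and 33.1% with median-ratio scaling, and 43.2%, 41.3% and 36.7% with quantile normalization. Without a filter 53.4% were higher in the second and 5.92% in the third comparison. In the third, the single fit gave 37.3%. The depth leaves Ddc and Ptgs2 with as few as 9.22 and 19.8 estimated fragments in a library.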
